A study of Mus musculus with 12 samples.

Results

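The 9 genes that encode the mouse Notch receptors and their canonical ligands were examined in RNA-Seq data from WT and Faf2 KO NE-4C cells. They were chosen as a gene family, with earlier results of these data known, and comprise the receptors Notch1, Notch2, Notch3 and Notch4, the Delta-like ligands Dll1, Dll3 and Dll4, and the Jagged ligands Jag1 and Jag2. All 9 stand among the 57010 genes of the deposited table. Of these, 8 were among the 16502 genes with enough counts for a test, and Dll4 was not.

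NE-4C is an immortalized line of neural progenitor cells from embryonic mouse brain. FAF2 is an adaptor protein of the endoplasmic reticulum that helps to extract misfolded proteins for degradation, and the KO cells carry a CRISPR-Cas9 deletion of Faf2 exon 4. WT and KO cells were either left uninduced (WT NO, KO NO) or treated with 1 µM all-trans retinoic acid (RA) for 24 h, then kept in medium without it and collected 3 days after induction (WT RA, KO RA). Each of the 4 groups has 3 libraries, 1 per passage, which gives 12 libraries in all. The KO cells are 1 line grown from picked colonies, so an effect of the deletion and a peculiarity of that line cannot be told apart. The p-values below measure the spread between these passages.

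Notch receptors are single-pass membrane proteins that are activated by ligands on neighbouring cells. Ligand binding leads to cleavage by ADAM proteases and then by gamma-secretase, and the freed intracellular domain joins the DNA-binding protein RBPJ and a Mastermind coactivator to switch on genes such as those of the Hes and Hey families. In the embryonic brain this signal keeps neighbours of a differentiating cell in the progenitor state, with Dll1 as a main ligand on the differentiating cells, and Notch3, Notch4, Dll4 and Jag1 are also well known from blood vessels.

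Levels are given as CPM, a gene's counts relative to the size of its library, after TMM scaling, which sets a common size for the libraries. The deposited counts were already corrected for gene length, so levels can be compared between genes as well as between groups. Library totals ranged from 17370069 to 30738717 counts. A count of 3, taken here as the floor of detection, corresponded to 0.0838 to 0.297 CPM, and floors of this kind cover counting error only. Faf2 itself was at 41.6 ± 7.41 CPM (SD, n = 3) in WT NO, 40.7 ± 7.38 in WT RA, 22.7 ± 2.38 in uninduced KO cells and 29.7 ± 9.56 in KO RA, where 1 library overlapped WT RA. KO RA replicate 3 stood apart from all other libraries, with a TMM factor of 0.394 against 0.872 to 1.277 in the others, and the tests between groups are given with and without it. The 10 neural progenitor markers examined, among them Nes, Sox1, Sox2 and Pax6, summed to 524 to 553 CPM in WT NO, 592 to 786 in WT RA, 410 to 464 in uninduced KO cells and 859 to 1000 in KO RA. Vim alone averaged 204, 331, 130 and 542 CPM in these groups, so it weighs heavily in the sums. Otx2 averaged 149, 123, 152 and 68.6 CPM. Between KO NO and WT NO, 1 of these 10 was called, where 1.14% of all genes were. It was Pax6, which was lower (log2 −2.5, edgeR adjusted p = 0.0264), and the median over the list was −0.66. Without KO RA replicate 3, edgeR called Cdh2, Pax6 and Msi1, all lower, with 8.78% of all genes called. Between KO RA and WT RA, 2 were called, where 1.24% of all genes were. Pax6 was lower (−2.21, edgeR adjusted p = 0.0396) and Fabp7 higher (3.89, adjusted p = 0.0376), and the median was 0.5. Fabp7 was at 40.6, 15.6 and 155 CPM in KO RA, with the highest value in replicate 3. Without that library edgeR called 6, with Nes, Fabp7, Cdh2, Msi1 and Sox1 higher and Pax6 lower, where 9.85% of all genes were called.

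Sequence upstream of the genes is shown because 2 of them, Notch1 and Jag1, rose together in KO cells after RA, and because Dll3 was the member whose promoter held any of the motifs searched. The 250 bases before the start of each gene's canonical GENCODE transcript were read from the GRCm39 genome, each 5′ to 3′ on the strand of its gene. Capitals mark the E-box letters CAGCTG or CATCTG, read on either strand; a match on the opposite strand of CATCTG appears as CAGATG. The windows were chr2:26393835-26394084 for Notch1, chr2:136958694-136958943 for Jag1 and chr7:28001674-28001923 for Dll3, all on the minus strand.
Notch1: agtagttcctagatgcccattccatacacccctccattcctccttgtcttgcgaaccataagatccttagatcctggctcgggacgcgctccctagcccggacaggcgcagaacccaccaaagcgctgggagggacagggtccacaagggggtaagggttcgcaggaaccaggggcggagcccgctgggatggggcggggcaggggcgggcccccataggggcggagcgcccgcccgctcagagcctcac
Jag1: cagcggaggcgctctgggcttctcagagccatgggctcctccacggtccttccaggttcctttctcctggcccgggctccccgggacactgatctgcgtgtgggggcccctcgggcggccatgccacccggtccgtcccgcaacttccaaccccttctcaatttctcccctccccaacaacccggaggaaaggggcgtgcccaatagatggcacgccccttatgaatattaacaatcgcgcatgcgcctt
Dll3: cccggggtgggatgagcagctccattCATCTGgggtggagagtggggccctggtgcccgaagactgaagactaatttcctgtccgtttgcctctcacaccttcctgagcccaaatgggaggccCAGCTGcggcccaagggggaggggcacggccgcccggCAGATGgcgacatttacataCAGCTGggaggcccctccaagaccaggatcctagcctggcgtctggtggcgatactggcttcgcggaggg

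Sets of letters were searched on both strands in the 9 windows and in those of 21664 genes. TGGGAA, the letters bound by RBPJ, stood in 22.8% of all windows and in 0 of the 9. AGGTCA, which retinoic acid receptors recognise as part of a larger site, stood in 13.1% of all windows and likewise in 0 of the 9. The proneural E-boxes CAGCTG (11.9% of all windows) and CATCTG (13% of all windows) were each found in 1 of the 9 windows, that of Dll3. In Dll3 the CAGCTG matches began at positions −127 and −70 from the start site and the CATCTG matches at −224 and −90. A match describes these letters in this window and is not evidence of binding. GC content of the member windows ran from 56% in Notch4 to 69.6% in Jag2, against a median of 53.2% over all windows. CpG dinucleotides ran from 3 in Notch4 to 26 in Notch2, against a median of 8.

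The genes lie on 5 chromosomes of GRCm39 and are all annotated as protein coding. Notch1 (chr2:26347915-26406675, minus strand), Dll4 (chr2:119156170-119166443, plus) and Jag1 (chr2:136923373-136958693, minus) share chromosome 2. Dll1 (chr17:15587276-15597134, minus), Notch3 (chr17:32339794-32385893, minus) and Notch4 (chr17:34783220-34807477, plus) share chromosome 17. Notch2 lies at chr3:97920800-98057677 (plus), Dll3 at chr7:27992978-28001673 (minus) and Jag2 at chr12:112871421-112893437 (minus).

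In WT NO cells Notch2 was the most abundant member at 23.2 ± 4.02 CPM, followed by Notch3 at 16.1 ± 3.27, Jag2 at 8.79 ± 1.98, Jag1 at 5.53 ± 0.995 and Dll1 at 2.74 ± 0.447 (SD, n = 3). The ranges of these 5 did not overlap their neighbours in the order. Notch1 (1.7 ± 0.71 CPM), Dll3 (0.886 ± 0.551) and Notch4 (0.428 ± 0.377) followed with ranges that overlapped from each to the next. Dll4 was at or under the floor in all 3 WT NO libraries, so it was not detectable at this depth. The order differed between groups. Notch3 and Notch2 led WT RA at 24.9 and 20.5 CPM with overlapping ranges, whereas in KO NO Jag2 (11.5 CPM) stood above Notch3 (6.57 CPM) in 3 of 3 libraries. In KO RA, Jag1 (9.64 CPM) stood above Jag2 (6.01 CPM) in 3 of 3 libraries, the reverse of the other 3 groups. These orders are descriptions of the levels, without a test between genes.

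**Figure D1:**
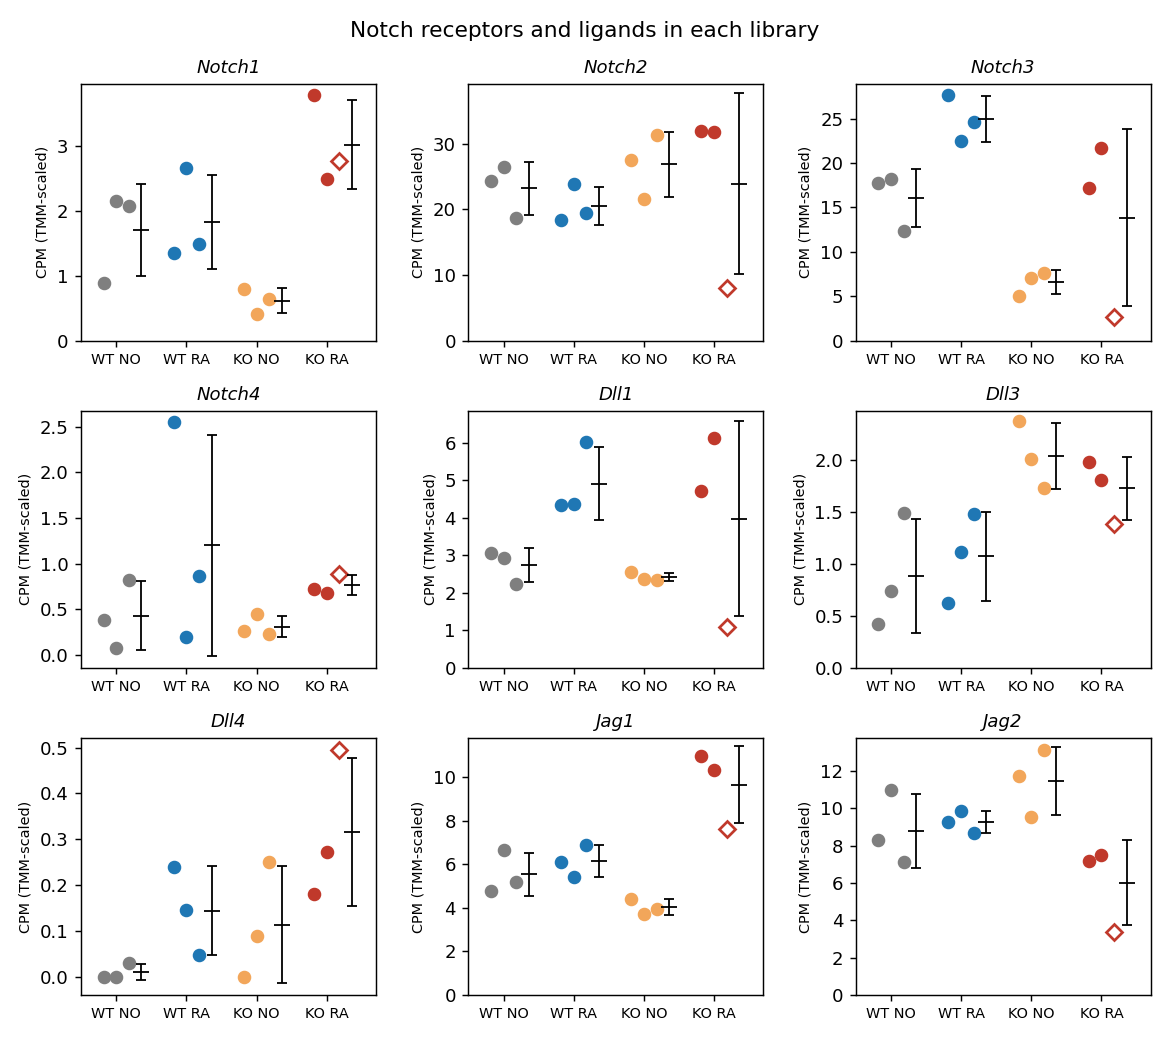
Level of each Notch receptor and ligand (CPM after TMM scaling, linear axes that differ between panels) in the 12 libraries, by group. Each point is 1 library in replicate order, the open diamond is KO RA replicate 3, and the bar at the right of each group gives the mean and SD (n = 3); Notch1 and Jag1 are higher in all KO RA libraries than in any KO NO library, while Notch2, Notch3 and Dll1 have their lowest value in KO RA replicate 3.

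Among the receptors, Notch1, the best studied member of the family, was at 0.880, 2.14 and 2.08 CPM in the WT NO libraries and at 0.791, 0.415 and 0.642 in KO NO. It was at 1.35, 2.67 and 1.48 CPM in WT RA and at 3.79, 2.49 and 2.78 in KO RA. All KO NO libraries thus lay below all others, and 2 of 3 KO RA libraries lay above every WT RA library. These values rest on an estimated 58 to 323 fragments per library.

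Notch2 was at 24.3, 26.5 and 18.7 CPM in WT NO and 18.4, 23.8 and 19.4 in WT RA. In KO NO it was at 27.5, 21.6 and 31.3 CPM, and in KO RA at 31.9, 31.7 and 7.93. The groups overlapped in every comparison, and KO RA replicate 3 held the lowest value of all.

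Notch3, which in vessels marks mural cells and in the brain is also made by progenitors, was at 17.7, 18.2 and 12.3 CPM in WT NO and at 27.7, 22.5 and 24.7 in WT RA. It was at 5.07, 7.08 and 7.57 CPM in KO NO and at 17.2, 21.7 and 2.68 in KO RA. The KO NO libraries all lay below WT NO, and KO RA spread from below KO NO to just under WT RA.

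Notch4, known mainly from endothelial cells, was low throughout, from 0.0739 CPM in 1 WT NO library to 2.55 in 1 WT RA library. Its KO RA libraries, at 0.722, 0.681 and 0.892 CPM, lay above the KO NO libraries at 0.264, 0.444 and 0.223. An estimated 6 to 173 fragments per library stand behind these levels.

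Among the ligands, Dll1 was at 3.06, 2.92 and 2.23 CPM in WT NO, 4.33, 4.37 and 6.02 in WT RA, and 2.55, 2.37 and 2.35 in KO NO. In KO RA it was at 4.70, 6.13 and 1.09 CPM. WT RA lay wholly above WT NO, and 2 of 3 KO RA libraries lay above KO NO with the third below it.

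Dll3, a divergent ligand that acts mostly within its own cell to dampen the signal, was at 0.423, 0.739 and 1.495 CPM in WT NO and 0.625, 1.12 and 1.48 in WT RA. It was at 2.37, 2.01 and 1.73 CPM in KO NO and 1.99, 1.81 and 1.39 in KO RA. Each KO NO library exceeded each WT NO library, on an estimated 14 to 88 fragments per library over the 4 groups.

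Dll4, a ligand of sprouting endothelium, had deposited counts of 0.380, 0.385 and 0.766 in WT NO, 4.51, 2.79 and 0.991 in WT RA, 0.393, 2.68 and 8.63 in uninduced KO cells and 4.08, 8.30 and 4.86 in KO RA. KO RA was thus the only group with every library above the floor of 3 counts, and no library held more than an estimated 13 fragments. No fold is given for Dll4.

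Jag1 was at 4.75, 6.65 and 5.19 CPM in WT NO and 6.11, 5.43 and 6.88 in WT RA. It was at 4.42, 3.703 and 3.97 CPM in KO NO and at 10.97, 10.3 and 7.63 in KO RA. After TMM scaling, the KO NO libraries were the lowest and the KO RA libraries the highest of all, with no overlap with any other group.

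Jag2 was at 8.28, 10.98 and 7.11 CPM in WT NO, 9.28, 9.85 and 8.70 in WT RA, 11.8, 9.54 and 13.1 in uninduced KO cells and 7.18, 7.50 and 3.37 in KO RA. Its order was the opposite of that of Jag1 in the KO cells, with every KO RA library below every KO NO library. In bulk samples such as these, fewer cells that express a gene and less RNA of it per cell cannot be told apart.

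The first comparison asked how the members differed between uninduced KO and WT cells. With all 12 libraries in 1 fit, 0 of the 8 tested members passed edgeR's quasi-likelihood test at a Benjamini-Hochberg adjusted p under 0.05, where 1.14% of all genes did. Of the 8, 3 had an unadjusted p under 0.05, as did 2011 of the 16502 genes. DESeq2 called 1 (Notch1; 6.5% of all genes) and limma-voom with sample weights called 2 (Notch3 and Dll3; 21.7%). The groups did not overlap for 4 of the 8, against 30.7% of all genes (15.5% higher and 15.2% lower). Notch1, Notch3 and Jag1 lay below WT NO and Dll3 above it. The log2 difference (KO NO minus WT NO) was −1.46 for Notch1 (SE 0.46, edgeR adjusted p = 0.195), −1.29 for Notch3 (SE 0.53, adjusted p = 0.348), −0.46 for Jag1 (SE 0.24, adjusted p = 0.486) and 1.19 for Dll3 (SE 0.49, adjusted p = 0.348). The median over the 8 members was −0.32, beside −0.02 over all genes tested. Without KO RA replicate 3, Notch3 fell in KO NO at a log2 change of −1.28 (SE 0.2, edgeR adjusted p = 0.00511), with 8.78% of all genes called. That library is not in either group compared and entered through the estimate of the spread that all groups share, whose median SE over all genes went from 0.43 to 0.27 without it.

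After RA, 0 of the 8 members passed the edgeR test between KO RA and WT RA, where 1.24% of all genes did. Of the 8, 1 (Jag1) had an unadjusted p under 0.05, as did 2899 of the 16502 genes. DESeq2 called 1 (Jag1; 8.41% of all genes) and limma-voom with sample weights 2 (Notch2 and Jag1; 18.1%). The groups did not overlap for 3 of the 8, against 20.9% of all genes (9.97% higher and 10.9% lower). Jag1 lay above WT RA with a log2 difference of 0.65 (SE 0.24, edgeR adjusted p = 0.205). Notch3 (−0.83, SE 0.53, edgeR adjusted p = 0.425) and Jag2 (−0.61, SE 0.3, adjusted p = 0.317) lay below it. The median over the 8 members was −0.03, beside 0.09 over all genes. Leaving out KO RA replicate 3, Jag1 rose in KO RA over WT RA at a log2 change of 0.79 (SE 0.2, edgeR adjusted p = 0.0326), with 9.85% of all genes called. Without it, the log2 difference of Dll1 turned from −0.28 to 0.14 and that of Notch3 went from −0.83 to −0.36, neither past the test.

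The third comparison followed WT cells into induction. None of the 8 members passed the edgeR test between WT RA and WT NO, where 0.406% of all genes did. Of the 8, 0 had an unadjusted p under 0.05, against 2071 of the 16502 genes. DESeq2 called 0 (5.91% of all genes) and limma-voom with sample weights called 2 (Notch3 and Dll1; 21.7%). Those same 2 members did not overlap between the groups, both higher in WT RA, against 29.1% of all genes (15.1% higher and 14% lower). The log2 difference (WT RA minus WT NO) was 0.63 for Notch3 (SE 0.53, edgeR adjusted p = 0.706) and 0.84 for Dll1 (SE 0.47, adjusted p = 0.518). The median over the 8 members was 0.21, beside −0.01 over all genes. Without KO RA replicate 3, Dll1 rose after RA at a log2 change of 0.85 (SE 0.23, edgeR adjusted p = 0.0403), with 10.8% of all genes called. Notch3 was then at 0.64 (SE 0.2, edgeR adjusted p = 0.0617).

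KO cells showed the clearest movement after induction. Notch1 rose 4.87-fold from KO NO to KO RA (log2 2.28, SE 0.47, edgeR adjusted p = 0.0202) and Jag1 rose 2.4-fold (log2 1.26, SE 0.24, edgeR adjusted p = 0.0133). These were 2 of the 8 members, both higher, where 5.48% of all genes were called and 3.89% were called higher. DESeq2 called 3 (Notch1, Jag1 and Jag2; 16.8% of all genes) and limma-voom 5 (Notch1, Notch3, Dll1, Jag1 and Jag2; 27.5%). Of the 8, 4 did not overlap between the groups, against 30.2% of all genes (13.2% higher and 17% lower), with Notch1, Notch4 and Jag1 above and Jag2 below KO NO. The log2 difference was −0.92 for Jag2 (SE 0.3, edgeR adjusted p = 0.103) and 1.28 for Notch4 (SE 0.91, adjusted p = 0.397). The median over the 8 was 0.91, beside 0.11 over all genes.

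Without KO RA replicate 3, the members called in KO RA over KO NO were Notch1 (log2 2.33, SE 0.5, edgeR adjusted p = 0.0111), Notch3 (1.56, SE 0.22, adjusted p = 0.0016), Dll1 (1.15, SE 0.25, adjusted p = 0.0118) and Jag1 (1.39, SE 0.2, adjusted p = 0.00169). All 4 were higher, with 16% of all genes called and 8.48% called higher. Notch3 and Dll1 were at 1.09 (SE 0.53, edgeR adjusted p = 0.224) and 0.73 (SE 0.47, adjusted p = 0.345) with that library in. Notch2 turned from −0.16 to 0.24 without it and passed in neither.

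The calls of Notch1 and Jag1 were lost when any 1 of the KO NO libraries was left out, at adjusted p of 0.0664, 0.105 and 0.0842 for Notch1 and 0.0508, 0.084 and 0.0609 for Jag1 without KO NO replicates 1, 2 and 3, and their log2 changes stayed between 2.06 and 2.52 and between 1.19 and 1.35. With edgeR on only the KO NO and KO RA libraries, neither gene was called (adjusted p of 0.06 for Notch1 and 0.0876 for Jag1). Without TMM scaling, Jag1 was at 3 CPM in KO RA replicate 3, under the lowest KO NO library at 4.075, whereas Notch1 was at 1.07 there, over the highest KO NO library at 0.9125.

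**Figure D2:**
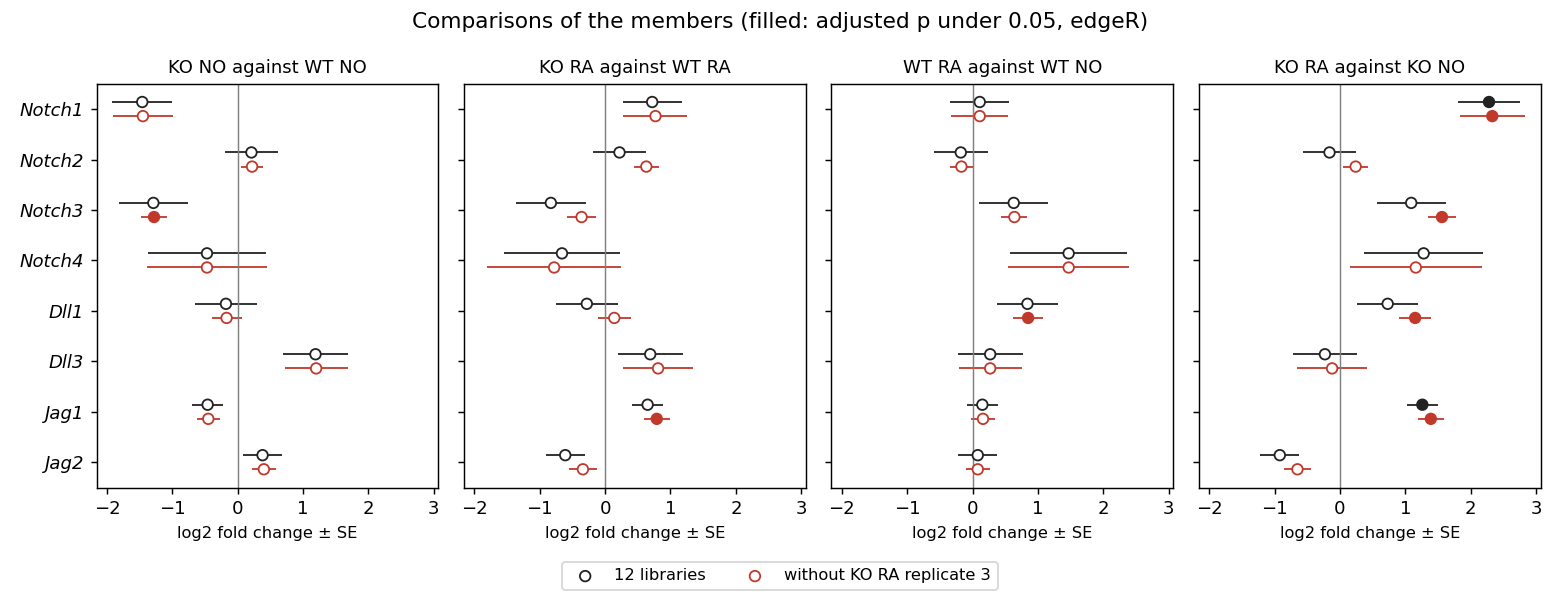
Log2 fold change with its SE (horizontal axis) of the 8 tested members in the 4 comparisons between groups, with all 12 libraries (black) and without KO RA replicate 3 (red). Filled points passed edgeR's test at an adjusted p under 0.05; Notch1 and Jag1 are filled in both colours for KO RA against KO NO, and the SE of most members is smaller in red.

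Whether RA acted differently on the members in the 2 genotypes was tested as an interaction term. It was 2.18 for Notch1 (SE 0.65, edgeR adjusted p = 0.395) and 1.11 for Jag1 (SE 0.33, adjusted p = 0.404), on the log2 scale, and −0.99 for Jag2 (SE 0.43, adjusted p = 0.554). None of the 8 members passed in edgeR, nor did any gene of the 16502 (0%). Of the 8, 3 had an unadjusted p under 0.05, as did 1423 of the 16502 genes. DESeq2 called 2 (Notch1 and Jag1), where it called 1.98% of all genes, while limma-voom called 1 (Jag1; 6.07%). Without KO RA replicate 3, Jag1 was at 1.23 (SE 0.27, edgeR adjusted p = 0.0539) and Notch1 at 2.22 (SE 0.66, adjusted p = 0.113), with 1.34% of all genes called. Whether the responses of Notch1 and Jag1 differed between KO and WT cells thus depended on the tool.

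**Figure D3:**
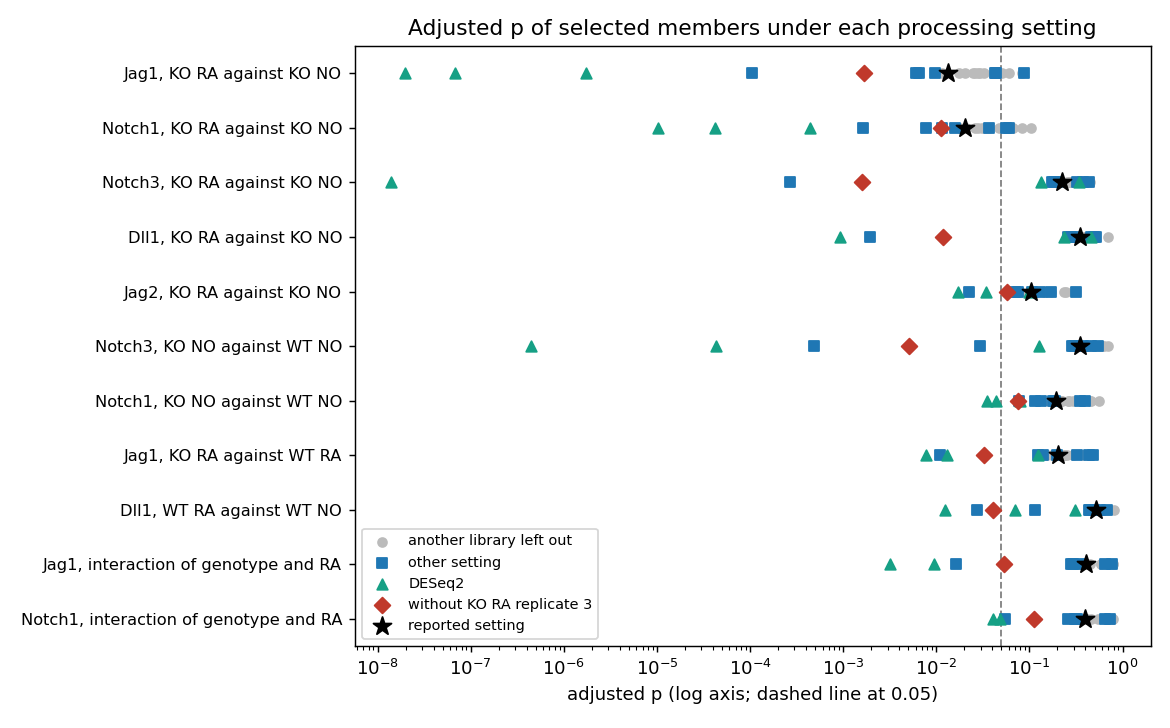
Adjusted p (log axis) of 11 pairs of member and comparison under the reported setting (star) and each alternative. Red diamonds leave out KO RA replicate 3, grey circles another library, green triangles are DESeq2 fits, blue squares the remaining settings, and the dashed line marks 0.05; Jag1 and Notch1 in KO RA against KO NO have most points left of the line, and the other pairs have most points right of it.

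The makeup of the receptor pool shifted between groups. Notch2 and Notch3 together made up most receptor transcript in every library. Notch3 took 36.3% to 40.9% of the summed receptor CPM in WT NO and 15.1% to 23.9% in KO NO, without overlap, while Notch2 took 55.1% to 56.5% and 73.1% to 81.8%. In KO RA, Notch3 took 18.8% to 38.4% and Notch2 55.6% to 59.5%, and in WT RA Notch3 took more than in any other group in every library. Notch1 took 1.4% to 2.35% in KO NO and 4.39% to 19.4% in KO RA, the highest value being that of KO RA replicate 3.

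In the ligand pool the Jagged genes changed places. Jag1 took 18.5% to 21% of the summed ligand CPM in KO NO and 39.7% to 54.6% in KO RA, and Jag2 took 53.8% to 61.3% and 24.1% to 28.8%. In WT cells Jag1 stayed at 28.8% to 32.3% in NO and 26% to 29.8% in RA, and Jag2 was the larger in every library, at 44.3% to 51.6% and 37.6% to 47.1%. Shares do not depend on the scaling between libraries, so the share of Jag1 was higher in all 3 KO RA libraries, replicate 3 included, than in every other library. Shares were not tested. Summed receptor CPM exceeded summed ligand CPM in every library, by 2.11 to 2.62 times in WT NO, 2 to 2.43 in WT RA, 1.59 to 1.86 in uninduced KO cells and 1.02 to 2.17 in KO RA.

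**Figure D4:**
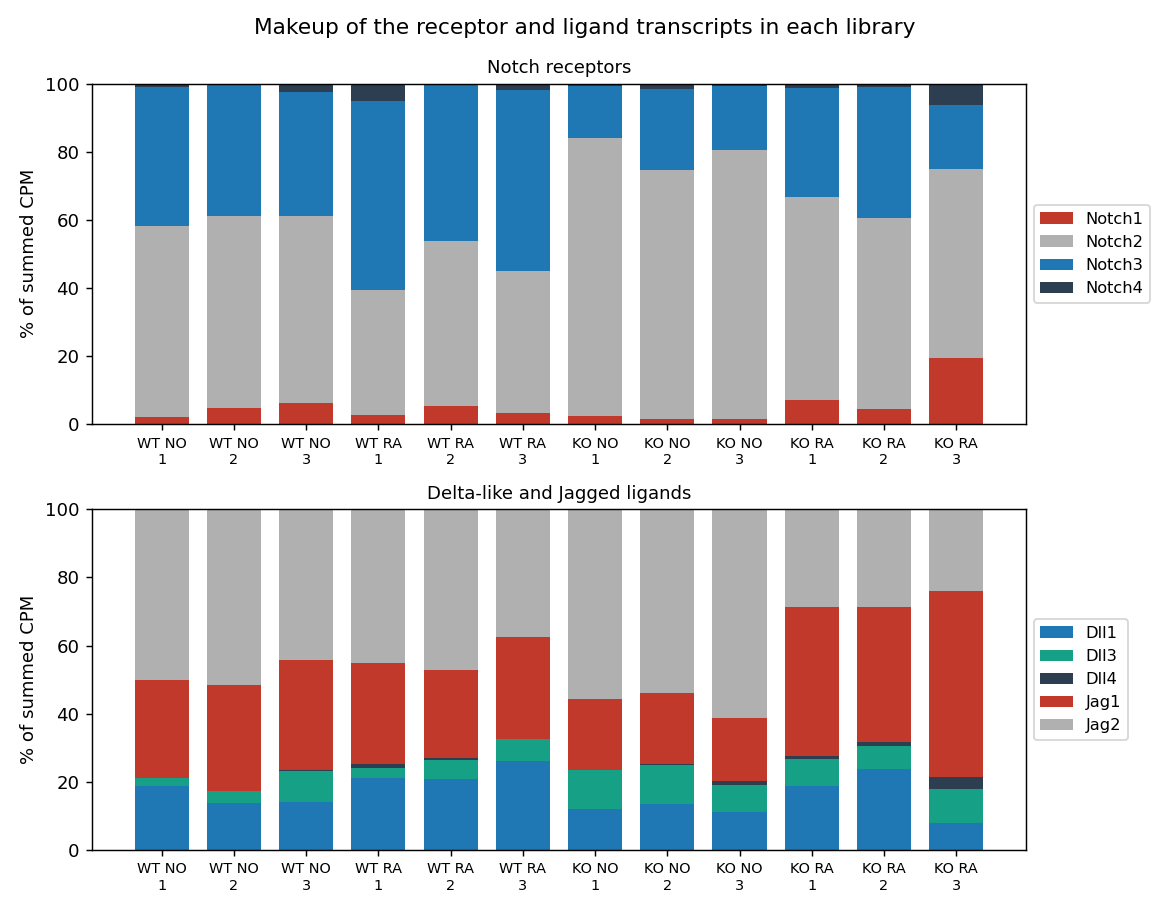
Share of each gene in the summed CPM of the 4 receptors (upper panel) and of the 5 ligands (lower panel) in each of the 12 libraries, as stacked bars from 0% to 100%. Notch3 narrows from 36.3% to 40.9% in WT NO to 15.1% to 23.9% in KO NO, and Jag1 widens from 18.5% to 21% in KO NO to 39.7% to 54.6% in KO RA.

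Across libraries, the log2 levels of Notch1 and Jag1 had a Pearson correlation of 0.84 over 11 libraries without KO RA replicate 3 and 0.84 over all 12, and those of Notch3 and Dll1 0.77 and 0.87. Jag1 and Jag2 were at −0.6 and −0.51. Of the 13359 other protein-coding genes tested, the pattern of Notch1 was most like those of Lgi2 (0.966 over 11 libraries, 0.968 over 12), 2510009E07Rik (0.945, 0.948) and Plekhh3 (0.941, 0.749). That of Jag1 was most like Rprm (0.952, 0.93), Olfml3 (0.951, 0.953) and Fam81a (0.95, 0.952), and that of Notch3 most like Tmprss12 (0.987, 0.886), Cmah (0.981, 0.702) and Septin3 (0.972, 0.985). These values describe patterns that share the same libraries, groups and scaling, and the genes were picked as the highest of many.

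The rest of the pathway was read from 60 further genes, of which 59 were tested. In KO NO against WT NO, 0 of the 59 passed in edgeR (1.14% of all genes), 6 higher and 3 lower had an unadjusted p under 0.05, and DESeq2 called 7 (6.5% of all genes). For KO RA against WT RA, edgeR called 1 (1.24% of all genes), 8 higher and 3 lower had an unadjusted p under 0.05, and DESeq2 called 7 (8.41%). Between WT RA and WT NO, 0 passed in edgeR (0.406%), 1 higher and 3 lower had an unadjusted p under 0.05, and DESeq2 called 1 (5.91%). From KO NO to KO RA, edgeR called 1 (5.48%), 6 higher and 8 lower had an unadjusted p under 0.05, and DESeq2 called 10 (16.8%). In the interaction, 0 passed in edgeR (0%), 3 had an unadjusted p under 0.05, and DESeq2 called 0 (1.98%). Over all 16502 genes, 2011, 2899, 2071, 4163 and 1423 had an unadjusted p under 0.05 in these 5 comparisons, in the same order. Nothing is read from the unadjusted counts of the 59. The median log2 difference of the 59 lay between −0.19 and 0.07 over the 5 comparisons, beside −0.02 to 0.12 over all genes.

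Of the 12 genes for turnover and inhibition of the signal, 1 was called in KO RA against KO NO, where 5.48% of all genes were called, and nothing is read from the count. Dtx4, a Deltex-family ubiquitin ligase, rose with a log2 change of 1.4 (SE 0.35, edgeR adjusted p = 0.0439), from 3.69, 3.76 and 4.80 CPM to 12.9, 14.4 and 4.76. The KO RA library at 4.76 CPM was replicate 3 and overlapped KO NO. Without it the change was 1.73 (edgeR adjusted p = 0.000454), and its interaction was 1.71 (edgeR adjusted p = 0.0191) where it was 1.38 (SE 0.49, adjusted p = 0.477) with all libraries.

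Among 5 non-canonical ligands, 1 was called in KO RA against WT RA, where 1.24% of all genes were called. Nothing is read from that count. Ccn3, a secreted matricellular protein that can bind Notch1, was at 1.22, 1.53 and 3.07 CPM in KO RA and had at most 1 count in every WT library. Against a floor of 3 counts per library it was at least 13.5-fold higher in KO RA than in WT RA (edgeR adjusted p = 0.0159, and 0.00934 without KO RA replicate 3). In KO NO it was at least 2.92-fold higher than in WT NO (edgeR adjusted p = 0.107, and 0.0465 without KO RA replicate 3). With 9 to 12 counts in KO NO and 27 to 45 in KO RA, Ccn3 had enough counts for a test only through KO RA. That is the group where it was high, so its adjusted p is not read as support beyond the levels.

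Dlk1, a Delta-like protein that lacks the domain needed to activate the receptors, was at 19.3, 11.9 and 9.91 CPM in KO NO and 1.23, 0.481 and 0 in WT NO. After RA it was at 39.8, 31.3 and 57.6 CPM in KO RA and 6.83, 0.194 and 0.573 in WT RA. The KO libraries lay above the WT libraries in both conditions, with log2 differences of 4.59 (SE 1.24, edgeR adjusted p = 0.121) and 4.08 (SE 1.17, adjusted p = 0.118). DESeq2 gave adjusted p of 0.00332 and 0.00726. With 11 libraries, KO RA replicate 3 left out, the edgeR adjusted p was 0.0459 and 0.0677. Egfl7, a secreted endothelial protein, was at 15.4 to 38.8 CPM in WT NO and 12 to 12.8 in WT RA (log2 −1.08, SE 0.32, edgeR adjusted p = 0.197), and without KO RA replicate 3 its adjusted p was 0.03. In KO cells it was at 30 to 36.3 CPM in KO NO and 11.2 to 20 in KO RA. DESeq2 on all libraries called it lower after RA in both genotypes. Dner and Dlk2 passed in no comparison.

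Of the 7 Notch target genes listed, 6 were tested and 0 passed the edgeR test in any comparison. Hes1, a repressor of neuronal genes and the most abundant of them, was at 23.3 ± 0.845 CPM in WT NO, 23.9 ± 2.5 in WT RA, 23.7 ± 3.23 in uninduced KO cells and 19.9 ± 11 in KO RA (SD, n = 3). Its log2 difference between KO RA and KO NO was −0.25 (SE 0.35, edgeR adjusted p = 0.69) with all libraries and 0.1 without KO RA replicate 3. Nrarp, a feedback inhibitor counted in both lists, was at 2.40, 2.84 and 1.98 CPM in KO NO and 5.06, 4.67 and 3.47 in KO RA, without overlap. Its log2 difference was 0.87 (SE 0.3, edgeR adjusted p = 0.114), and 1 (adjusted p = 0.0342) without KO RA replicate 3. Hey1 was at 4.01 ± 2.05, 5.13 ± 1.04, 5.79 ± 2.05 and 4.81 ± 2.97 CPM in WT NO, WT RA, KO NO and KO RA. Hes5, Hes7 and Hey2 were each under 1 CPM on average in every group, and Heyl was at or under the floor in all libraries.

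The lists for glycosylation, ligand endocytosis, cleavage, the nuclear complex and Rbpj corepressors had 0 genes called in edgeR with all 12 libraries in any comparison. On the 11 libraries other than KO RA replicate 3, edgeR called 9 of the 59 in KO NO against WT NO (8.78% of all genes), 9 in KO RA against WT RA (9.85%), 7 in WT RA against WT NO (10.8%), 7 in KO RA against KO NO (16%) and 1 in the interaction (1.34%), and the values of the next 2 sentences are from that fit. In KO NO against WT NO the cleavage protease gene Adam10 was higher (log2 0.75, edgeR adjusted p = 0.00897), as were Neurl1a (1.38, adjusted p = 0.0281), Snw1 (0.68, adjusted p = 0.00603) and the inhibitor Numb (0.95, adjusted p = 0.00465). In KO RA against KO NO the coactivator Maml2 was higher (2.37, edgeR adjusted p = 0.00389), as was the inhibitor Numbl (0.7, adjusted p = 0.0157), and the histone deacetylase Hdac1 (−0.8, adjusted p = 0.00169), the acetyltransferase Kat2a (−0.52, adjusted p = 0.0101) and the Deltex-family ligase Dtx3l (−1.2, adjusted p = 0.0372) were lower. The fit on 11 libraries also called Hdac1 and Kat2a lower in WT RA against WT NO. Hdac1 averaged 198 CPM in WT NO and 139 in WT RA, and Kat2a 85.9 and 64.6. With all libraries Maml2 was at 1.99 in KO RA against KO NO (SE 0.52, edgeR adjusted p = 0.05).

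**Figure D5:**
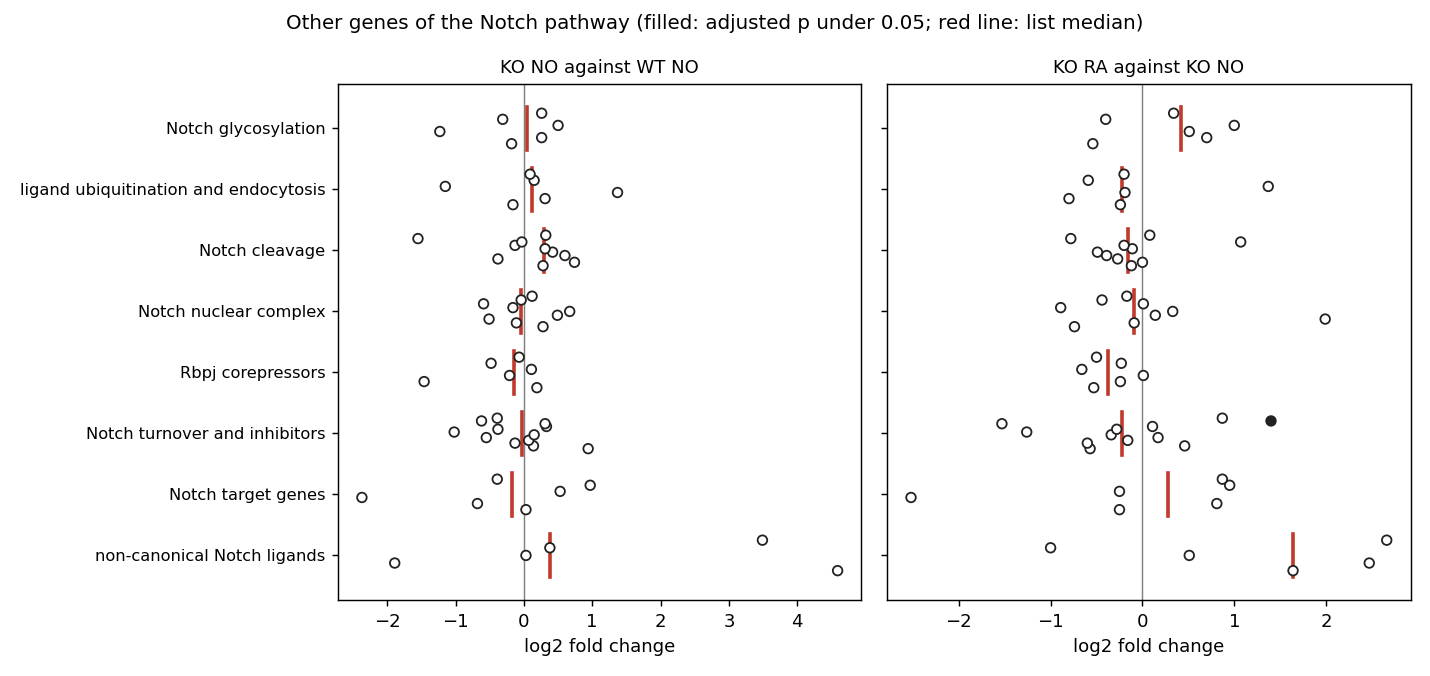
Log2 fold change (horizontal axis) of the 59 tested further genes of the Notch pathway in 8 lists, for KO NO against WT NO (left) and KO RA against KO NO (right), with all 12 libraries. Each circle is 1 gene, filled at an edgeR adjusted p under 0.05, and the red line is the median of the list; Dtx4 is the 1 filled point, and Dlk1 and Ccn3 are the points at the far right of the left panel.

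Markers of other cell types were also called in KO RA against KO NO, and some in WT RA against WT NO. The summed level of 10 endothelial markers was 4.76 to 5.88 CPM in WT NO, 5.4 to 8.63 in WT RA, 6.58 to 11.5 in uninduced KO cells and 16 to 25.7 in KO RA. Of 6 tested, 3 were higher in KO RA than in KO NO (Tek, Emcn and Kdr). Flt1, which was not called there, averaged 4.02, 4.21, 7.1 and 8.24 CPM in the 4 groups, a large part of these sums. Cdh5, the cadherin that defines endothelial junctions, was at 0 in every WT NO and KO NO library. It was at 0.192, 0.291 and 0.0478 CPM in WT RA and at 2.62, 2.21 and 0.297 in KO RA. Cdh5 was not among the 6 tested, and its lowest KO RA value stood at the floor of 3 counts. Of the other untested markers, Tie1 and Cldn5 averaged higher in KO RA than in KO NO, and Esam lower (0.25 against 0.341 CPM). The summed level of 10 mural and mesenchymal markers was 43.7 to 62.4, 82.4 to 148, 39.1 to 45.3 and 161 to 283 CPM. Of 9 tested, 4 were higher in KO RA than in KO NO (Col1a1, Col3a1, Col1a2 and Acta2). Acta2 averaged 13.6, 40.9, 3.09 and 128 CPM and Twist1 35.6, 38.5, 34.7 and 43.5, a large part of these sums. In WT RA against WT NO, edgeR called 2 of 9 higher (Col3a1 and Col1a2; 0.406% of all genes) and 0 endothelial, neuronal or progenitor markers. The median log2 difference of the 9 was 1.59 there and 1.45 in KO RA against KO NO. For 10 neuronal markers the sums were 84.7 to 118, 156 to 177, 76.7 to 94.7 and 179 to 275 CPM. From KO NO to KO RA, 3 of 10 were called higher (Map2, Gap43 and Tubb3) and 8 of 10 had a positive log2 difference. Rbfox3 averaged 2.37, 0.353, 1.62 and 0.445 CPM in WT NO, WT RA, KO NO and KO RA, and Snap25 2.55, 2.44, 2.38 and 2.02. DESeq2 called Rbfox3 lower in WT RA against WT NO. Stmn2 averaged 60.1, 93.6, 51.1 and 99 CPM, a large part of the neuronal sums. In KO RA against KO NO, 5 of 10 neural progenitor markers were higher (Nes, Fabp7, Cdh2, Vim and Sox1). Another progenitor marker, Otx2, was called lower in edgeR without KO RA replicate 3. The background in KO RA against KO NO was 3.89% of all genes higher. Emcn was at 0 counts in KO NO and 15 to 34 in KO RA, and Tek at 4 to 9 and 7 to 29. Both of these and Kdr had enough counts for a test only through KO RA. That is the group where they were high, so the count of endothelial markers is not read against this background. The part of these cell types in the levels of the Notch genes was not tested.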

How the data were processed

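mRNA-Seq was analysed from 12 libraries, 3 per group. The authors aligned and quantified paired-end reads with the default nf-core/rnaseq workflow (STAR and Salmon, GRCm39) and deposited estimated counts per gene, scaled from TPM and hence corrected for gene length, but not normalized between libraries. Such counts keep a library's total but not the read number of each gene: over the 3851 genes detected in a single library, values and transcript lengths had a Spearman correlation of −0.749.

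Counts were rounded to whole numbers and filtered with filterByExpr, which left 16502 of 57010 genes. edgeR 4.0.16 (R 4.3.3) was fitted with TMM factors, 1 coefficient per group and robust quasi-likelihood dispersion (8 residual degrees of freedom), and p-values were adjusted over all tested genes by Benjamini and Hochberg at 0.05. Fits were tested on simulated counts. Alternatives used DESeq2 1.42.0, limma 3.58.1 with voom sample weights, other filters and factors, a replicate block, estimated fragments and each library left out. Genes named are the 9 members, called genes of the pathway lists, the Notch targets and non-canonical ligands, and the 3 genes most correlated with a member. Members and lists were chosen with earlier results of these data known. Sequences and coordinates are from GRCm39 with GENCODE annotation. Some genes of the pathway lists are counted but not reported here by name.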

Additional observations from a re-analysis of the deposited data

Results flagged for a closer look

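Jag1 differed between genotypes in opposite directions before and after RA, with groups that did not overlap in either condition after TMM scaling. Without TMM scaling the groups overlapped in both conditions. KO NO replicate 1 was then at 5.152 CPM, above WT NO replicate 1 at 4.921. KO RA replicate 3 was then at 2.996 CPM, below WT RA at 5.314 to 6.129. With TMM scaling, the KO minus WT log2 difference was −0.46 in uninduced cells and 0.65 after RA, where all 3 KO libraries lay below all WT libraries and then above them. Neither difference passed edgeR's test on its own. The interaction that tests the change directly had an edgeR adjusted p of 0.404, and over 20 alternative settings it ranged from 0.00321 to 0.787 and passed in 3. The interaction was positive in all 20.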

How the results depend on the processing

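Notch1 and Jag1 in KO RA against KO NO were called in 17 and 18 of 22 alternative settings and kept their direction in all 22. With edgeR on only the groups compared, 0 members were called there (adjusted p of 0.06 for Notch1 and 0.0876 for Jag1). Members called in KO NO against WT NO went from 0 to 1 with DESeq2 on all libraries, with DESeq2 on only the groups compared and with edgeR on only the groups compared, and to 2 with limma-voom. In KO RA against WT RA they went from 0 to 1 with DESeq2 on all libraries and to 2 with limma-voom. In WT RA against WT NO they went from 0 to 1 with DESeq2 on only the groups compared and to 2 with limma-voom. In KO RA against KO NO they went from 2 to 5 with limma-voom, and in the interaction from 0 to 2 with DESeq2 and 1 with limma-voom. DESeq2 on 11 libraries without KO RA replicate 3, chosen after seeing the data, called 2, 2, 2, 5 and 2 in these 5 comparisons. With 1 library left out, the counts ranged from 0 to 1 in the first 3 comparisons, from 0 to 4 in KO RA against KO NO and from 0 to 0 in the interaction. The cause was not tested.

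Same-numbered libraries had correlations of −0.167 to 0.038 in their deviations, and differently numbered libraries −0.075 to 0.144. These values gave no sign of pairing by replicate number, but with 3 libraries a group they cannot exclude it. With a replicate block, 1 member (Jag1) was called in KO RA against KO NO, with Notch1 at an edgeR adjusted p of 0.0555.

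Reversed directions were all of differences that did not pass the test with all libraries. With limma-voom the log2 difference was 0.22 for Notch2 in KO RA against KO NO, 0.37 for Notch4 in KO NO against WT NO, 0.13 for Dll1 in KO RA against WT RA, 0.42 for Dll1 in the interaction and −0.01 for Jag2 in WT RA against WT NO. DESeq2 on 11 libraries gave 0.24 for that of Notch2, and 0.13 and 0.3 for those of Dll1. The Notch2 interaction was −0.03 without a filter, −0.14 with the replicate block and −0.01 on estimated fragments. With 1 library left out, Notch1 ran from −0.27 to 0.3 and Dll3 from −0.07 to 0.89 in WT RA against WT NO, and Jag2 there from −0.05 to 0.27. Notch2 ran from −0.03 to 0.63 in KO RA against WT RA, −0.42 to 0.24 in KO RA against KO NO and −0.24 to 0.41 in the interaction, where Notch3 ran from −0.02 to 0.92. Notch4 ran from −0.95 to 0.42, −1.16 to 0.52 and −1.05 to 0.99 between the genotypes in NO, between them in RA, and in the interaction, and Dll1 from −0.73 to 0.14 and −0.55 to 0.3 in the last 2 of these. Depth limits Notch4, Dll3 and Dll4, whose values rest on few fragments.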
